A study of Mus musculus with 5 samples.

Results

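The genes described here are 10 genes of the endoplasmic reticulum (ER) protein folding machinery and of the unfolded protein response: Hspa5, Hyou1, Dnajb9, Sdf2l1, Hsp90b1, Pdia4, Calr, Manf, Herpud1 and Xbp1. They were chosen by name, and all 10 were found among the 53927 genes of the deposited table. All 10 were among the 14884 genes kept for testing. The study sequenced total RNA of cultured primary nephron progenitors, the embryonic kidney cells from which nephrons form, taken from C57BL/6J mice. They were isolated by a synthetic niche culture protocol and passaged 1 time. The libraries came from Dis3l2+/+ embryos (WT, 2 libraries) or Dis3l2-/- embryos (KO, 3 libraries). Dis3l2 encodes an exoribonuclease that degrades uridylated RNA. The labels give neither the age of the embryos nor whether the libraries stem from different embryos. Xist and Ddx3y, given below, show that the WT libraries differ in sex, and that KO replicate 3 differs in sex from KO replicates 1 and 2. Whether KO replicates 1 and 2 stem from the same embryo is not known. A p-value here reflects only the scatter of these 5 libraries, which may be technical in part. Levels are the deposited CPM, read counts scaled to the effective size of each library.

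Secreted and membrane proteins enter the ER unfolded and are folded there by chaperones, by enzymes that make disulfide bonds and by lectins that bind glycoproteins. When unfolded protein builds up, the sensors Ire1, Perk and Atf6 are activated, and the transcription factors Xbp1, Atf4 and Atf6 raise the genes of chaperones and of ER-associated degradation. Among the proteins folded in this way are collagens, integrins and growth factor receptors. Many genes of the response carry an ER stress response element (ERSE) upstream of their start, to which NF-Y and Atf6 bind.

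The promoters are shown because the ERSE is the sequence by which these genes are known to be raised together. RefSeq promoter windows of GRCm38.p6 (250 bases before to 50 after each start) were given for 8 of the 10 genes, all but Hyou1 and Manf. Motifs were searched on both strands. The ERSE was searched as CCAAT, any 9 bases and CCACG, the related ERSE-II as ATTGG, any 1 base and CCACG (the letters CCACG are common to both), a UPRE core as TGACGTGG, a CRE as TGACGTCA and an ATF4 site as TGATGNAAN, and none of these searches excluded overlap with another motif. An exact ERSE was found in the windows of Hspa5, Hsp90b1 and Calr, 3 of 8 members, against 0.137% of all 27025 genes with a window (0.119% of 32851 windows). Because these motifs are known from genes of this response, the matches describe the promoters and carry no test. Herpud1 held an ERSE-II, found in 0.0365% of windows, and an ATF4 site, found in 3.95%. No member window held the UPRE (0.676% of windows) or the CRE (1.79%). With up to 1 mismatch in the fixed letters, an ERSE was found for 5 of 8 members, Pdia4 and Herpud1 being added, against 1.72% of genes with a window. That search was added after the exact matches had been seen. Each line below gives the 250 bases before the start on the strand of the gene, 5′ to 3′, with the exact ERSE or ERSE-II in capitals, at chr2:34771840-34772089 (plus) for Hspa5, chr10:86705445-86705694 (minus) for Hsp90b1, chr8:84846932-84847181 (minus) for Calr and chr8:94386179-94386428 (plus) for Herpud1.
Hspa5: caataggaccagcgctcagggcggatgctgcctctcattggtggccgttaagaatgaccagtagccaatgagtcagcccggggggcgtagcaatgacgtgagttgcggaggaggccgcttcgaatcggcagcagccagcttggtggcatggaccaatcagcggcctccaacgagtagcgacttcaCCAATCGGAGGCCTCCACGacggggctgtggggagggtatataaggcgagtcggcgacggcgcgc
Hsp90b1: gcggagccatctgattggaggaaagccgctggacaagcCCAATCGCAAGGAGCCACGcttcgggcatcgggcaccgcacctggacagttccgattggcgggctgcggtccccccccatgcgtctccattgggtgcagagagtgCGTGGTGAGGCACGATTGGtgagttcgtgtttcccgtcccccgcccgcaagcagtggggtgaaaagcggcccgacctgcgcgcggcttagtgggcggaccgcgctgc
Calr: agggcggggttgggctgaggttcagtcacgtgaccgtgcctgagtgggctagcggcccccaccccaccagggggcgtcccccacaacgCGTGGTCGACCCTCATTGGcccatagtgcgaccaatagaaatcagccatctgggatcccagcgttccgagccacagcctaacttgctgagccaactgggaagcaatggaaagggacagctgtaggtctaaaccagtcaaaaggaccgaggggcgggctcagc
Herpud1: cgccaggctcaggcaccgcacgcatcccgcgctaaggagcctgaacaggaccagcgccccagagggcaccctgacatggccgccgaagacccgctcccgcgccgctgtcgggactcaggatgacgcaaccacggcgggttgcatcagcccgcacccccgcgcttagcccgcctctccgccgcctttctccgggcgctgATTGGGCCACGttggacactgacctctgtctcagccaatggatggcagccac
Starts are those of RefSeq. The gene spans given below are from GENCODE and begin earlier for some genes, so that 120 bases of the stretch of Hspa5, 65 of Hsp90b1 and 3 of Calr lie inside the GENCODE gene. The ERSE of Hspa5 ended 47 bases before the RefSeq start, read on the strand of the gene, and lies inside the GENCODE gene. Hsp90b1 held 2 copies in opposite orientations, ending 194 and 89 bases before the start. The copy of Calr lay on the opposite strand, and its nearest base was 144 bases before the start. The ERSE-II of Herpud1 ended 42 bases before the start.

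Depth was inferred from the steps of low values. By this measure the shallowest library was KO replicate 3, with 19.61 M assigned reads, and the deepest was KO replicate 1, with 49.25 M. The targeted gene Dis3l2 was at 16.04 and 12.18 CPM in the WT cells, against 6.50, 4.93 and 4.70 in KO, so the KO libraries lay below the WT pair (log2 fold change -1.24, SE 0.21, adjusted p = 0.95, limma). With the replicate number as a block Dis3l2 passed (log2 fold change -1.17, SE 0.13, adjusted p = 0.028, limma). That fit has nearly as many terms as libraries, so little is left to measure scatter. Progenitor markers were present, with Eya1 between 168 and 274 CPM, Itga8 between 356 and 471 and Six2 between 18.6 and 31.9, but Pax2 reached at most 0.66 CPM. Their levels were not alike in all libraries. Cited1 was at 15.2 and 1.40 CPM in WT replicates 1 and 2, against 17.05, 4.74 and 2.73 in KO replicates 1, 2 and 3. Crym was at 16.9 and 2.35 (WT) against 10.7, 3.34 and 2.26 (KO). Of the 12 markers, 2 had all KO values above the WT pair and 0 below it, against 7.85% and 6.98% of all genes tested. They were Pax2 and Osr1, the latter at 22.3 and 19.5 CPM (WT) against 41.5, 64.6 and 27.3 (KO). The 8 renal stroma markers summed to 643 to 1009 CPM (WT) and 592 to 773 (KO), led by Col3a1 (283 to 684), with Foxd1 at most 0.25. The 7 ureteric bud markers summed to 12.5 to 16.4 (WT) and 14.6 to 22.2 (KO), most of it Hoxb7 and Wnt11, with Ret at most 0.42. The leukocyte markers Ptprc and Adgre1 reached at most 0.11 and 0.04 CPM, while Mrc1, Cd68 and Csf1r reached 3.85, 3.15 and 1.74. The 5 leukocyte markers summed to 7.21 to 7.65 CPM (WT) and 4.95 to 5.69 (KO). Of these, Mrc1 and Cd68 were lower in every KO library than in both WT libraries. Of the 5 adipocyte-like markers, all 5 were lower in every KO library than in both WT libraries, with a summed level of 40.8 to 51.4 CPM (WT) and 6.37 to 14.5 (KO). The part of these markers in the results below was not tested. Mitochondrial ribosomal RNA took 38.9% to 40.7% of the summed values in WT and 31.5% to 32.9% in KO, and Rn7sk took 3.51% to 3.83% in WT and 2.27% to 11.9% in KO, the highest share being that of KO replicate 1. Xist was high in WT replicate 2 and KO replicates 1 and 2 (765 to 951 CPM) and near 0 in WT replicate 1 and KO replicate 3 (at most 0.93).

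**Figure D1:**
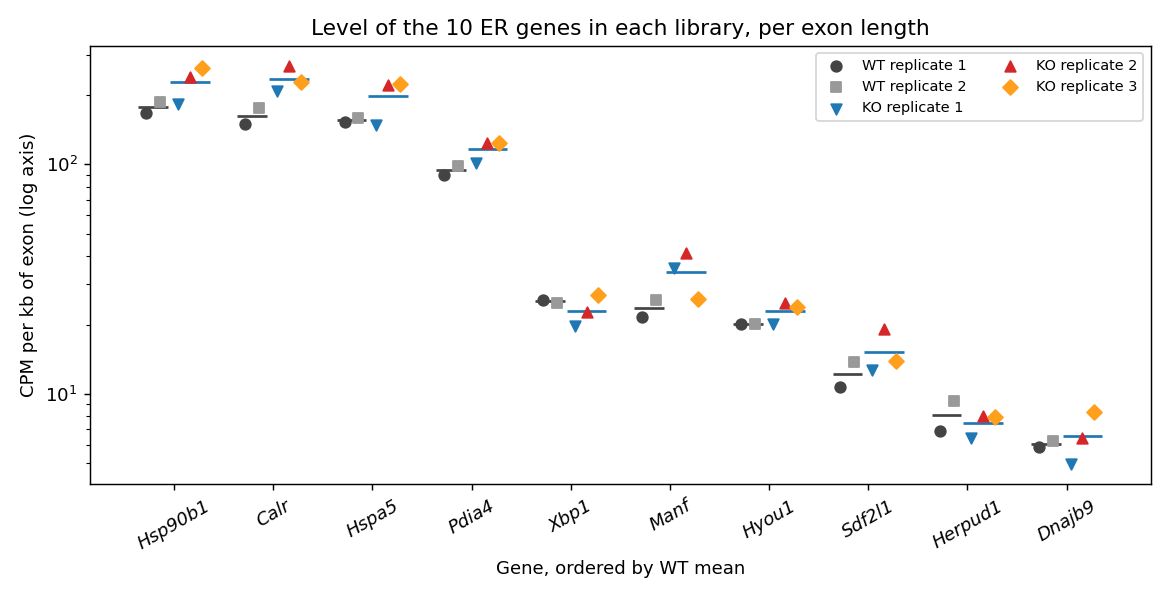
CPM per kb of exon (log axis) of the 10 genes in the 2 WT and 3 KO libraries, ordered by WT mean, with lines at the mean of each genotype. Hsp90b1, Calr and Hspa5 stand highest, and the KO means of Calr and Manf lie furthest above their WT means.

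The Hsp70 system of the ER lumen holds nascent proteins and feeds the folding pathway. Hspa5, also called BiP, is its central chaperone and also keeps the stress sensors inactive (chromosome 2, 34771970 to 34777547, plus strand, GRCm38). Hspa5 was at 647 and 673 CPM in the WT cells, against 631, 940 and 949 in KO. KO replicate 1 lay below both WT libraries while the other KO libraries were about 1.4 times the WT mean, so the genotypes overlapped. Its means were 660 ± 18.3 (WT) and 840 ± 181 CPM (KO, SD, n = 2 and 3), giving a log2 fold change of 0.32 (95% interval -0.20 to 0.85, limma). In these bulk samples a change in the share of cells that make a message and a change in its level per cell cannot be told apart. Hyou1, the large Hsp70 relative that exchanges nucleotide on Hspa5 (chromosome 9, 44379490 to 44392369, plus strand), measured 146 CPM in both WT libraries and 146, 179 and 173 CPM in the KO libraries. The lowest KO value, 146.42, lay above the higher WT value, 146.26, by less than counting error, which was up to 1.78% for this gene. Its log2 fold change was 0.18 (95% interval -0.15 to 0.51).

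Dnajb9, a J-domain cochaperone that acts with Hspa5 and restrains Ire1 (chromosome 12, 44205559 to 44210326, minus strand), was at 14.98 and 15.97 CPM in the WT cells, against 12.6, 16.3 and 21.3 in KO. The KO libraries lay on both sides of WT, with a log2 fold change of 0.08 (95% interval -0.46 to 0.61). The value was -0.10 without KO replicate 3. Sdf2l1, which works with Hspa5 and its J-domain partners (chromosome 16, 17130138 to 17132383, minus strand), was at 11.9 and 15.3 CPM in the WT cells, against 14.1, 21.3 and 15.4 in KO. KO replicate 2 stood out high and KO replicate 1 fell between the WT libraries, and the log2 fold change was 0.29 (95% interval -0.24 to 0.81). Dnajb9 and Sdf2l1 were among the 3 members with the fewest reads, and counting error reached 5.56% and 6.25% for them.

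Hsp90b1, also called Grp94, is the Hsp90 of the ER and folds integrins and Toll-like receptors, among others (chromosome 10, 86690209 to 86705509, minus strand). It was at 675 and 757 CPM in the WT cells, against 741, 973 and 1059 in KO. KO replicate 1 stayed within the WT range and the other KO libraries lay above it. The means were 716 ± 58.1 and 924 ± 165 CPM (SD, n = 2 and 3), giving a log2 fold change of 0.35 (95% interval -0.13 to 0.84).

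Pdia4, a protein disulfide isomerase (chromosome 6, 47796141 to 47813430, minus strand), was at 215 and 237 CPM in the WT cells, against 243, 298 and 297 in KO. All 3 KO libraries exceeded the WT pair, KO replicate 1 only slightly. The log2 fold change was 0.30 (95% interval -0.06 to 0.66). Calr, the soluble calcium-binding lectin that folds glycoproteins (chromosome 8, 84841850 to 84846934, minus strand), was at 432 and 507 CPM in the WT cells, against 601, 774 and 662 in KO. All 3 KO libraries stood clear of WT, including KO replicate 1. Its means were 469 ± 53.3 and 679 ± 87.9 CPM (SD, n = 2 and 3), a ratio of 1.45. The log2 fold change of Calr was 0.53 (SE 0.18, 95% interval 0.11 to 0.95), with an unadjusted p of 0.020, and the threshold was not met once adjusted for all genes (adjusted p = 1.00, limma).

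Manf, a small ER protein that is secreted under stress and binds Hspa5 (chromosome 9, 106838312 to 106891979, minus strand), was at 76.0 and 90.2 CPM in the WT cells, against 124, 145 and 91.7 in KO. KO replicates 1 and 2 were high. KO replicate 3 (91.65) lay above WT replicate 2 (90.19) by less than counting error, which was up to 2.47% for this gene. The means were 83.1 ± 10.1 and 120 ± 26.9 CPM (SD, n = 2 and 3), also a ratio of 1.45. Its log2 fold change was 0.51 (SE 0.21, 95% interval 0.01 to 1.01), with an unadjusted p of 0.047 (adjusted p = 1.00, limma). With the replicate number as a block, Manf passed (log2 fold change 0.69, SE 0.09, adjusted p = 0.030, limma), the only member of 10 to do so, against 2.28% of all genes called higher and 0.343% called lower. What the numbers share is not labelled. The blocked fit has nearly as many terms as libraries, so its p-value rests on little scatter. Replicate number 1 joins a WT library with Xist at 0.93 CPM to a KO library with Xist at 872. KO replicate 3 has no WT library of its number, and the blocked estimate equals that without KO replicate 3, the KO library in which Manf was nearest to WT. The annotated span of Manf includes the same-strand gene Rbm15b, at 52.8 and 48.4 CPM (WT) against 63.8, 52.4 and 51.2 (KO), and the opposite-strand gene Dcaf1, so shared reads are uncertain.

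Herpud1, a membrane protein of ER-associated degradation (chromosome 8, 94386438 to 94395377, plus strand), measured 16.1 and 21.7 CPM in the WT cells, against 15.0, 18.8 and 18.5 in KO. WT replicate 2 was highest and KO replicate 1 lowest, with the other 3 libraries between them, and the log2 fold change was -0.10 (95% interval -0.55 to 0.34). The value was 0.10 without WT replicate 2. Xbp1, the transcription factor whose message is spliced by Ire1 (chromosome 11, 5520659 to 5525893, plus strand), measured 83.5 and 80.8 CPM in the WT cells, against 64.0, 73.6 and 87.4 in KO. KO replicates 1 and 2 lay below WT and KO replicate 3 above it. The log2 fold change was -0.14 (95% interval -0.52 to 0.24). Values are per gene, so spliced and unspliced Xbp1 messages cannot be told apart.

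Levels were compared between genes per kb of exon, over the union of annotated exons, which lengthens genes with long alternative isoforms. In WT Hsp90b1 averaged 178 CPM per kb, Calr 163 and Hspa5 156, and the ranges of these 3 genes over the 5 libraries overlapped. Pdia4 followed with 94.2 CPM per kb, its highest library (124) below the lowest of Hspa5 (149). Xbp1 (25.3), Manf (23.6) and Hyou1 (20.2) formed an overlapping group, below the lowest library of Pdia4 (89.7). Sdf2l1 (12.3 CPM per kb), Herpud1 (8.11) and Dnajb9 (6.07) were lowest, and the ranges of Herpud1 and Dnajb9 overlapped. In KO the mean of Calr, 236 CPM per kb, was above that of Hsp90b1, 229, a difference smaller than the spread of either.

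**Figure D2:**
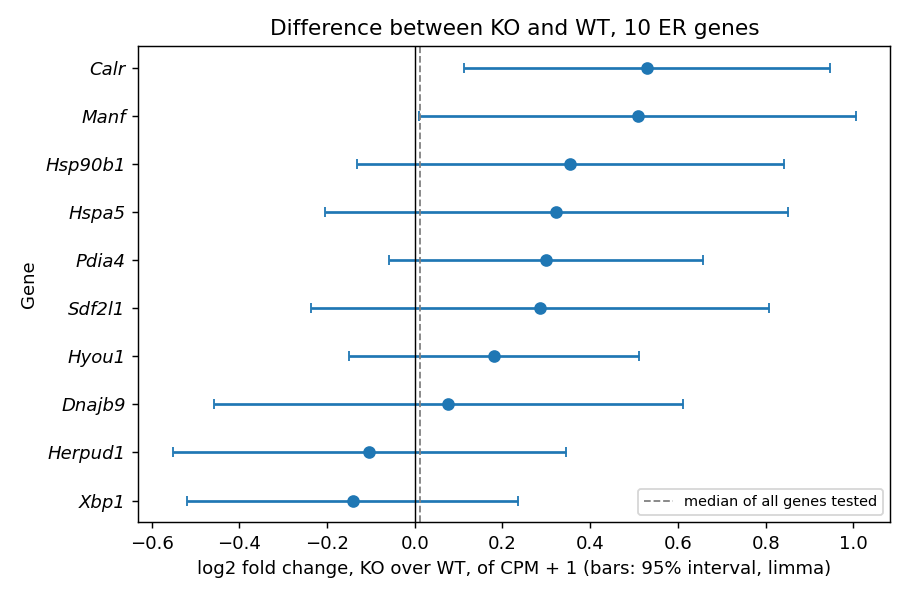
Log2 fold change of KO over WT of CPM + 1 for the 10 genes, with 95% intervals from limma and a dashed line at the median of all genes tested, 0.01. The intervals of Calr and Manf lie above 0 and those of the other 8 genes include 0.

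None of the 10 genes passed the adjusted threshold of 0.05 in either direction (limma with Benjamini-Hochberg adjustment over 14884 genes). Over all genes 0.00672% passed higher and 0% lower. At an unadjusted p under 0.05, Calr and Manf were higher, 2 of 10 members, against 1.5% of all genes higher and 1.27% lower. In the authors' deposited table no member had an FDR under 0.05 either, against 0.0315% of its genes. There Calr had a log2 fold change of 0.53 (p = 0.0207), and in the authors' deposited table Manf also had 0.53 (p = 0.0324). The intervals above reach from 0.51 (Hyou1) to 1.01 (Manf) at their upper end for the 8 genes with a positive value.

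Of the 10 genes, 8 had a positive log2 fold change and Herpud1 and Xbp1 a negative one, with a median of 0.29, against 52.9% positive and a median of 0.01 over all genes tested. All KO values exceeded the WT pair for Calr, Manf, Pdia4 and Hyou1, 4 of 10, against 7.85% of all genes. None lay below both, against 6.98%. With median-of-ratios scaling, or with all columns rescaled to an equal total, Pdia4 and Hyou1 overlapped and 2 of 10 remained separate, against 6.95% and 11.5% of all genes. Without KO replicate 1 the number was 8 of 10, all but Herpud1 and Xbp1, against 16.3% of all genes. It was 4 of 10 without KO replicate 2 (11% of all genes), without KO replicate 3 (23.5%) and without WT replicate 1 (21.5%), and 6 of 10 without WT replicate 2 (20.2%).

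**Figure D3:**
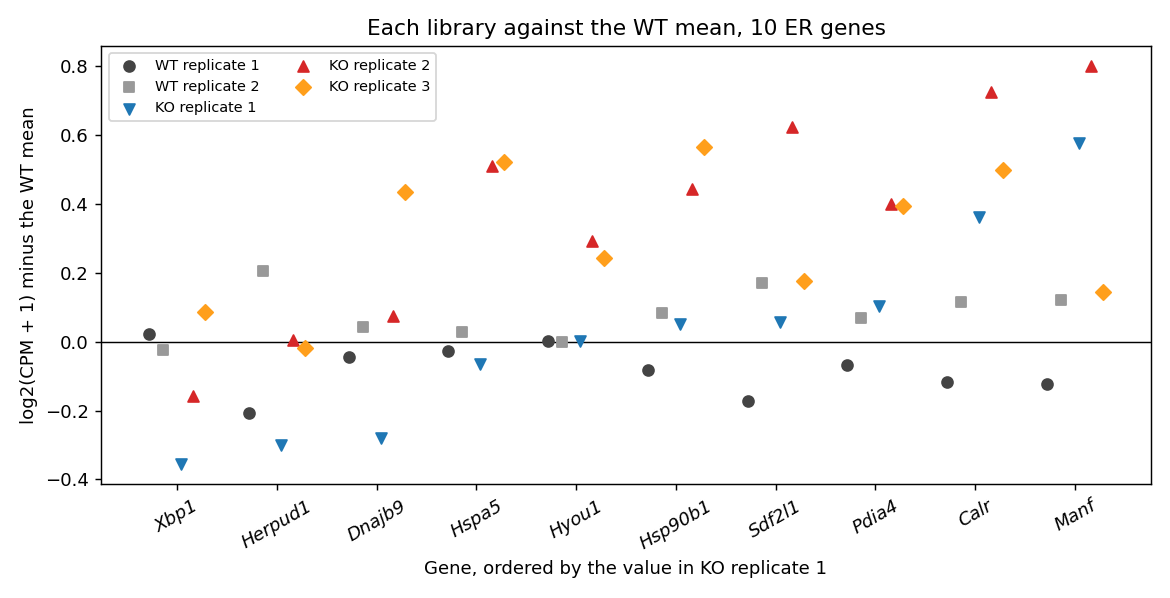
Log2(CPM + 1) of each library minus the WT mean for the 10 genes, ordered by the value in KO replicate 1. KO replicate 1 runs from -0.36 for Xbp1 to 0.58 for Manf and lies near 0 for Hspa5, Hyou1, Hsp90b1 and Sdf2l1, where KO replicate 2 lies between 0.29 and 0.62.

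The 3 KO libraries differed in how the 10 genes stood. The median of the 10 genes relative to the WT mean was 0.03, 0.42 and 0.32 on the log2 scale in KO replicates 1, 2 and 3, while the median of all genes tested was 0.02, 0.0082 and -0.0046 in the same libraries. Hspa5, Hsp90b1 and Pdia4 lay above the WT mean by a like amount in KO replicates 2 and 3 (0.39 to 0.57) and were at -0.06 to 0.10 in KO replicate 1. Calr was above WT in all 3 (0.36, 0.73 and 0.50). Manf was high in KO replicates 1 and 2 (0.58 and 0.80) and at 0.15 in KO replicate 3. Dnajb9 had its highest value in KO replicate 3 (0.43) and its lowest in KO replicate 1 (-0.28). The ratio of Manf to Hspa5 in CPM was 0.117 and 0.134 (WT) against 0.197, 0.154 and 0.0966 (KO). The ratio of Hspa5 to Hsp90b1 kept to between 0.852 and 0.966 in all 5 libraries. KO replicate 1 also had the largest share of Rn7sk and the greatest depth, and across 14870 tested genes with an annotated length its log2 difference from KO replicate 3 had a Spearman rho of -0.19 with exon length. Some cell markers set it apart too. Sall1 was at 88.0 CPM in KO replicate 1 against 49.6 and 47.9 in KO replicates 2 and 3, and Pdgfrb at 46.0 against 90.3 and 90.7. Other markers did not, such as Itga8 (407 against 356 and 471). In WT replicates 1 and 2 Sall1 was at 81.7 and 37.0, and Pdgfrb at 68.4 and 141. Genes are not independent replicates, and the part of these properties in the levels of the 10 genes was not tested.

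Libraries with the same state of Xist were also compared. KO replicate 3 was above WT replicate 1 for 10 of 10 genes, with ratios from 1.05 (Xbp1) to 1.57 (Hsp90b1) and a median of 1.34, against 47.4% of all genes higher. Against WT replicate 2, KO replicate 2 was higher for 8 of 10 genes (median ratio 1.27), against 53.0% of all genes. KO replicate 1 was higher than WT replicate 2 for 4 of 10 (median ratio 0.958), against 54.1% of all genes. Both comparisons with WT replicate 2 share that library, and each has 1 library a side, so they carry no test.

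Relatives of the members outside the list were read beside them, and differences between a member and its relative were not tested. Hspa8, the cytosolic Hsp70, was at 327 and 342 CPM in the WT cells, against 349, 363 and 350 in KO (log2 fold change 0.08). Hspa9 of mitochondria had a log2 fold change of -0.13, with KO values all below the WT pair, and Hspa13 had -0.06. The cytosolic Hsp90 genes Hsp90aa1 and Hsp90ab1 had log2 fold changes of 0.16 and 0.02, the latter -0.12 without KO replicate 1 and -0.04 without WT replicate 2, and the mitochondrial Trap1 had 0.12. Among disulfide isomerases P4hb had a log2 fold change of 0.40, Pdia6 of 0.34 and Pdia3 of 0.27, beside the 0.30 of Pdia4. Canx, the membrane-bound lectin that pairs with Calr, was at 649 and 689 CPM in the WT cells, against 580, 716 and 807 in KO (log2 fold change 0.05, and -0.05 without KO replicate 3). The ratio of Calr to Canx in CPM was 0.665 and 0.735 (WT) against 1.04, 1.08 and 0.819 (KO). It was higher in all 3 KO libraries, and this pair was singled out after its values had been seen. The ratios of Hspa5 to Hspa8, Hsp90b1 to Hsp90ab1, Pdia4 to Pdia6 and Sdf2l1 to Sdf2 overlapped between genotypes. Sdf2, the relative of Sdf2l1, had a log2 fold change of 0.09. Cdnf, the relative of Manf, was at 0.49 to 0.70 CPM in all libraries.

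**Figure D4:**
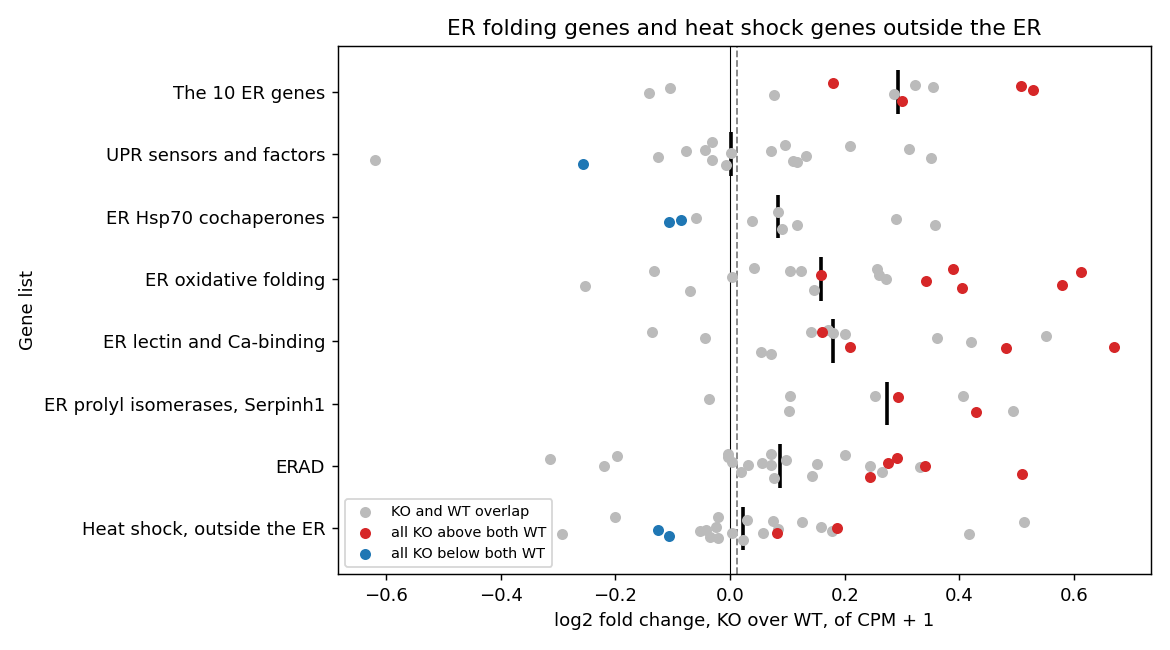
Log2 fold change of KO over WT of CPM + 1 for each gene of the 10 and of 7 further lists, with black lines at list medians, a dashed line at the median of all genes and colour for genes whose genotypes do not overlap. The medians of the ER folding lists lie between 0.08 and 0.27, and those of the sensors and of heat shock genes outside the ER lie at 0.0017 and 0.02.

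The rest of the ER folding and stress pathway was read from 7 further lists. No gene of any of these lists passed over all genes in either direction (limma), and at an unadjusted p under 0.05 there were 7 of 113 tested genes higher (Mogs, Creld2, Edem2, Cnpy2, P4hb, Creld1 and Rcn3) and 0 lower, against 1.5% and 1.27% of all genes. With the replicate block Mogs (adjusted p = 0.030), Cnpy2 (0.040), Rcn3 (0.045) and Fkbp10 (0.048) passed (limma), against 2.28% of all genes called higher and 0.343% called lower. The block was read only for the named genes of these lists, so this is no count over all their genes. The counts below stand against 52.9% of all genes positive, 7.85% with all KO values above the WT pair and 6.98% with all below it. The oxidative folding list, which holds the other disulfide isomerases and their partners, had 17 tested genes, of which 14 were positive and 6 had all KO values above the WT pair, with a median of 0.16. Creld2, an ER protein whose gene is raised by ER stress, was at 11.3 and 13.3 CPM in the WT cells, against 16.8, 22.3 and 19.1 in the KO cells. The log2 fold change was 0.61 with an unadjusted p of 0.010. P4hb was at 428 and 499 CPM in the WT cells, against 577, 665 and 599 in KO, a log2 fold change of 0.40. In both genes all KO libraries were above WT.

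Of the 15 tested genes among 16 lectin chaperones and calcium-binding proteins of the lumen, 13 were positive and 4 lay above the WT pair, with a median of 0.18. Mogs, the glucosidase that starts the trimming of N-glycans, was at 29.4 and 25.2 CPM in the WT cells, against 49.3, 44.4 and 38.5 in the KO cells. Its log2 fold change of 0.67 had the smallest unadjusted p of the 7 lists, 0.0040, and its KO values all exceeded the WT pair. Cnpy2, a small lumenal protein, had a log2 fold change of 0.48, and Rcn3, a calcium-binding protein of the secretory pathway, had 0.55. The list of prolyl isomerases and the collagen chaperone Serpinh1 had 8 genes, of which 7 were positive and 2 lay above the WT pair (Fkbp2 and Ppib), with a median of 0.27. Serpinh1, which folds procollagen, was at 1061 and 1451 CPM in the WT cells, against 1721, 2258 and 1370 in KO, so its genotypes overlapped through KO replicate 3.

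Of the 24 tested genes among 25 for ER-associated degradation, 19 were positive and 5 lay above the WT pair, with a median of 0.09. Edem2, which trims mannose from misfolded glycoproteins, was at 6.12 and 6.46 CPM in the WT cells, against 9.08, 10.3 and 8.79 in KO (log2 fold change 0.51, unadjusted p 0.018). Os9, a lectin of the degradation complex, had a log2 fold change of 0.34, Selenos 0.28 and the segregase Vcp 0.24, each with all KO libraries above WT. In the list of Hsp70 cochaperones and exchange factors, 6 of 9 were positive, none lay above the WT pair and 2 lay below it, with a median of 0.08. Dnajb11, a J-domain partner of Hspa5, was at 50.5 and 63.8 CPM in the WT cells, against 54.4, 85.0 and 84.1 in KO, with KO replicate 1 within the WT range and the others above it.

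The 17 sensors and transcription factors of the response were spread around 0, with 9 positive, none above the WT pair and a median of 0.0017. Ern1, which encodes Ire1, was at 14.7 and 12.8 CPM in the WT cells, against 12.0, 10.3 and 11.7 in KO, below WT in every KO library (log2 fold change -0.26). Creb3 had a log2 fold change of 0.21, and Atf6b of 0.31 with overlapping genotypes. Of 23 heat shock genes of the cytosol and mitochondria, 13 were positive and 2 lay above and 2 below the WT pair, with a median of 0.02. The small heat shock gene Hspb8 was at 29.1 and 40.4 CPM in the WT cells, against 31.1, 69.6 and 55.4 in KO.

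The genes whose profile over the 5 libraries was nearest to that of Hspa5 were found by the root mean square difference of log2(CPM + 1), each profile centred on its own mean, among 9863 genes of at least 5 CPM. The nearest 5 outside the members were Fig4 (0.034), Dusp10 (0.034), Ier5 (0.044), Arpc5 (0.046) and Erp44 (0.051). Erp44, which returns escaped ER proteins, was at 43.8 and 46.7 CPM in the WT cells, against 41.9, 59.0 and 64.9 in KO. Among members, Hsp90b1 ranked 13th with 0.069, Pdia4 71st with 0.11 and Hyou1 170th with 0.14. Manf ranked 6313th with 0.35.

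The genes with an exact ERSE were compared with their values. Window symbols were matched to the table by current symbol or, for 221 tested genes, by an older one. Of 16 tested genes with an ERSE in a RefSeq window, 12 were positive, with a median of 0.10. Over 10319 tested genes with a window, 53.8% were positive and the median was 0.02. Of the 16 genes, 3 lay above the WT pair and 1 below it, against 802 and 657 of the 10319. Without the 3 members the median of the other 13 was 0.05, and 2 of them lay above the WT pair and 1 below it. Those in the ER lists were Creld2 (0.61), Pdia6 (0.34), Syvn1 (0.20), Ero1lb (0.10, at 0.93 to 1.47 CPM), Canx (0.05) and Dnajc3 (0.04), beside Calr (0.53), Hsp90b1 (0.35) and Hspa5 (0.32). Syvn1, Ero1lb and Dnajc3 are outside the naming rule and were picked with their values known. Signs changed without KO replicate 1 (Syvn1, -0.09) and without KO replicate 2 or 3 (Dnajc3, -0.03 and -0.11). Of 9 tested genes with an ERSE-II, 3 were positive, among them Dnajb11 (0.36) and Nucb1 (0.20, also named afterwards), while Herpud1 was at -0.10.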

How the data were processed

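RNA from 2 WT and 3 KO libraries was prepared as total RNA with a stranded kit and read from 1 end, per the labels' protocols. Reads were processed with HISAT2 2.1.0, featureCounts and edgeR 3.20.1 on build mm10, per the submitters' processing notes. The sources used here give no annotation release, strand setting or rule for multi-mapped reads. The deposited signal is CPM relative to each effective library size, with 2 decimals, and column sums ran from 0.92 M to 1.05 M. The deposited table also holds the authors' log2 fold change, a likelihood ratio score (not used) and the authors' p-value and FDR, over all 53927 genes.

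The depth was read from the steps of low values, of which 100.0% lay within rounding of a whole read, except 99.96% in KO replicate 1. The steps were fitted to such values, and 23.4% to 51.6% would lie there by chance, the most in KO replicate 1. Counting error is 1 over the square root of the reads so recovered. A count model was to be run only if 95% of values up to 20 reads lay within 0.1 of a whole read in every library. Rounding alone moves a value by up to 0.11 to 0.23 of a read, the shares were 45.0% to 95.4%, and no count model was run. Values of log2(CPM + 1) in all 5 libraries were fitted by limma 3.58.1 (R 4.3.3, trended prior) on genotype alone, for genes of at least 0.5 CPM in at least 2 libraries. P-values are two-sided and adjusted by Benjamini-Hochberg over all genes kept. Fold changes on this scale understate those of low genes. Of these steps only the limma fit was tested on simulated data, with changes larger than any seen in the members. Coordinates and exon lengths are from GENCODE vM21 (GRCm38), which held 53360 of the 53927 identifiers. The members and lists were chosen with earlier results of these data known. Named genes were the 10 members, Dis3l2, up to 4 genes of smallest p in each further list, 12 relatives and the 5 genes nearest to Hspa5, with exceptions stated. Of 10 marker lists (progenitor, stroma, ureteric bud, podocyte, early tubule, endothelium, leukocyte, adipocyte-like, muscle and red cell), the summed levels of leukocyte (7.21 to 7.65 CPM in WT, 4.95 to 5.69 in KO) and adipocyte-like markers did not overlap between genotypes. Alternatives covered the pseudocount, filter, scaling, trend, replicate block, an Xist term and leaving out each library.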

Additional observations from a re-analysis of the deposited data

How the results depend on the processing

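Of 140 recomputed log2 fold changes of the 10 members, 136 kept their direction and their side of the threshold, 3 changed sign and 1, that of Manf with a replicate block, came to pass. Those that changed sign were Dnajb9 with a replicate block (-0.10) and without 1 library (range -0.10 to 0.25), and Herpud1 without 1 library (-0.31 to 0.10). The other filters and the fit without trend leave a member's fold change as it was, so they could not change its direction. The block repeats the fold change found without KO replicate 3. The median of the 10 members ran from 0.18 to 0.40 without 1 library. It was 0.30 and 0.26 with pseudocounts of 0.5 and 5, 0.27 with median-of-ratios scaling, 0.32 with columns rescaled to an equal total, 0.27 with an Xist term and 0.24 with a replicate block. The number of members that passed was 1 with a replicate block and 0 otherwise. The number with all KO values above the WT pair, 4, was 2 with either other scaling and 4 to 8 without 1 library, 8 being the value without KO replicate 1. Over all genes 1 passed. That was 0 with a pseudocount of 5, no filter, median-of-ratios scaling, no trend or an Xist term, 390 with a replicate block, and 0 to 8 without 1 library (5 without KO replicate 1 and 8 without KO replicate 3). The causes were not tested. With the block 2.28% of genes passed higher and 0.343% lower. No label says that equal replicate numbers share anything, and only 2 numbers occur in both genotypes, so the pairing was not used. The blocked fit also has nearly as many terms as libraries, which leaves little to measure scatter for every gene that passed with it. Among other named genes, Canx (-0.054) and Dnajc3 (-0.11) changed sign with a replicate block, while Mogs, Cnpy2, Rcn3, Fkbp10 and Dis3l2 came to pass (adjusted p 0.028 to 0.048, limma). Signs also changed without 1 library for Creb3l1 (-0.013 to 0.72), Hspa13 (-0.24 to 0.063), Hsp90ab1 (-0.12 to 0.12), Canx (-0.054 to 0.18), Dnajc3 (-0.11 to 0.26) and Syvn1 (-0.092 to 0.52). Counting error was at most 6.25% for any member, and the 2 and 3 libraries a genotype limit the precision of every comparison.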
